A study of Homo sapiens with 4 samples.

Results

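The genes that encode the machinery for importing proteins into mitochondria were followed in BEAS-2B cells, a line of immortalised human bronchial epithelial cells, after exposure to gamma rays. The members were set by a rule on gene symbols, drawn up with earlier results of these data known: every gene whose symbol starts with TIMM or TOMM and a digit (26 genes), and 9 further genes of the import machinery and its surroundings, PAM16, DNAJC19, CHCHD4, GRPEL1, HSPA9, MICOS10, MICOS13, PMPCA and PMPCB. They came to 35 of the 36601 genes in the deposited tables. The small members were the 9 genes TIMM8A, TIMM8B, TIMM9, TIMM10, TIMM10B, TIMM13, TOMM5, TOMM6 and TOMM7, and the other 26 were the larger members. Of these, 9 small and 23 larger members passed the filter on low values, a mean of 10 CPM (UMIs per 1000000 UMIs of a library) over the 4 libraries, which 8507 of all genes passed.

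A single-cell library was made from each of 4 groups, unirradiated control cells and cells given 10 mGy, 100 mGy or 1 Gy from a Cs-137 source, and processed after 30 min of further culture. All groups were of the same cell line. With 1 library per dose there was no replicate and no test, and an effect of dose and a difference between libraries cannot be told apart. Each of the 3 comparisons with the control used the same control library. Every level below is the number of unique molecular identifiers (UMIs, counted mRNA molecules) of a gene, summed over the barcodes of a library and divided by the library total, in CPM. The 95% intervals cover counting error only.

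The libraries held 11111 to 21514 barcodes and 211752280 to 285806026 UMIs. Barcodes of the control were the deepest, with a median of 19771 UMIs against 13757 for 10 mGy, 12417 for 100 mGy and 14277 for 1 Gy. Barcodes with fewer UMIs than that median divided by 3 made up 19.6%, 41.4%, 27.4% and 25.4% of these libraries. Any 2 libraries shared 76 to 134 barcode sequences, at most 0.864% of a library. The labelled cell type was checked on its genes: VIM stood at 2344 to 2702 CPM, KRT7, KRT8 and KRT18 at 219 to 645 CPM, and KRT19 at 1.72 to 2.41 CPM, while the immune, endothelial and red cell genes PTPRC, CD74, LYZ, PECAM1, VWF, HBB and HBA1 were each under 1 CPM in each library. The last group was thus detected at a trace level and KRT19, an epithelial keratin, was nearly absent.

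Nearly all mitochondrial proteins are made in the cytosol and must be brought in. The TOM complex of the outer membrane is the entry gate, with receptors (TOMM20, TOMM22, TOMM70), a channel (TOMM40) and small subunits that hold it together (TOMM5, TOMM6, TOMM7). The small TIM proteins are chaperones of the intermembrane space that escort hydrophobic carriers to the inner membrane, where the TIM22 complex inserts them. The TIM23 complex passes proteins with a presequence across the inner membrane, and a motor built around the chaperone HSPA9 (mortalin) pulls them into the matrix, where the peptidase of PMPCA and PMPCB removes the presequence. CHCHD4 is the oxidoreductase that folds cysteine-rich proteins of the intermembrane space, small TIM proteins among them. MICOS10 and MICOS13 belong to the complex that forms cristae junctions, the necks of the inner membrane folds.

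Sequence in front of the genes is shown for the 2 small members with the highest ratios to the control among their complexes, because promoters of nuclear genes for mitochondrial proteins are known for sites of NRF-1 and of ETS-family factors such as NRF-2. The RefSeq promoter tables (GRCh38.p14) held an entry for 32 of the 35 members, 7 small and 25 larger, and the 250 bases before the start were read. Capitals mark a match, on either strand, to the NRF-1 core GCATGCGC or the ETS core CCGGAAG. The sequence of TIMM10, chr11:57530755-57531004 on the minus strand, holds the ETS core in 2 places, and that of TOMM7, chr7:22822850-22823099 on the minus strand, holds the NRF-1 core.
TIMM10: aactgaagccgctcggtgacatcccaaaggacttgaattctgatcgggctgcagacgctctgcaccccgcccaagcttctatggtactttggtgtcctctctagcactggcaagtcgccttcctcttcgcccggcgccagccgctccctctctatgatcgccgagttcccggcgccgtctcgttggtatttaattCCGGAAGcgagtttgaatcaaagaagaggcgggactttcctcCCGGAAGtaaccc
TOMM7: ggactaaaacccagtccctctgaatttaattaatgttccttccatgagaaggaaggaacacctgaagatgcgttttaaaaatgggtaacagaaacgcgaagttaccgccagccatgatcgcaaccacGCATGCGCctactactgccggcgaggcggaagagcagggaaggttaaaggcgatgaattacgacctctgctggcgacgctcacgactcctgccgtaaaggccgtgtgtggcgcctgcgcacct

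The NRF-1 core was found before 4 members (TOMM7, TIMM9, PAM16 and CHCHD4), against 3.22% of the 27305 promoters. The ETS core was found before 12 members, 4 of them small (TIMM10, TIMM10B, TIMM13 and TOMM6), against 10.2% of promoters. TIMM23B and TIMM23B-AGAP6, both among the 12, have the same promoter window, so the members hold it before 11 distinct starts. Promoters were matched by symbol. In GENCODE 29 the identifier of TIMM23B-AGAP6 is named LINC00843, a lincRNA with its start outside that window. The YY1 core AAGATGGC was found before TOMM40L alone among the members, against 1.64% of promoters. None of the 3 motifs contains another, and a match is a description of the letters and not of binding. Genes with the NRF-1 core stood on both sides of the control at 10 mGy, TOMM7 with a ratio of 1.63 and CHCHD4 with 0.911.

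The 9 small members were all higher at 10 mGy and at 100 mGy than in the control and the 1 Gy library, in CPM. In 9 of 9 the order was 100 mGy, then 10 mGy, then the other two libraries. Of all genes tested, 20.7% had both low doses above the control and 1 Gy, and 32.2% were higher at 100 mGy than at 10 mGy. The summed level of the small members came to 1529 CPM (control), 2223 CPM (10 mGy), 2539 CPM (100 mGy) and 1639 CPM (1 Gy). That gives ratios of 1.45, 1.66 and 1.07 to the control. Past 1.2-fold, the fold limit the study applied, 7 of 9 were higher at 10 mGy and 8 of 9 at 100 mGy, and none was lower. Of the 8507 genes tested, 15.4% were over 1.2-fold higher and 53.0% over 1.2-fold lower at 10 mGy, and 14.0% and 58.9% at 100 mGy. As UMIs per barcode, without scaling to the total, the direction turned for part of them. Without low-UMI barcodes TIMM8A, TIMM9 and TIMM10B were below the control at 100 mGy, and over all barcodes TIMM13 was too, with these 4 and TOMM5 and TOMM6 below it at 10 mGy. TOMM7, TIMM8B and TIMM10 stayed above the control at both low doses in each case.

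**Figure D1:**
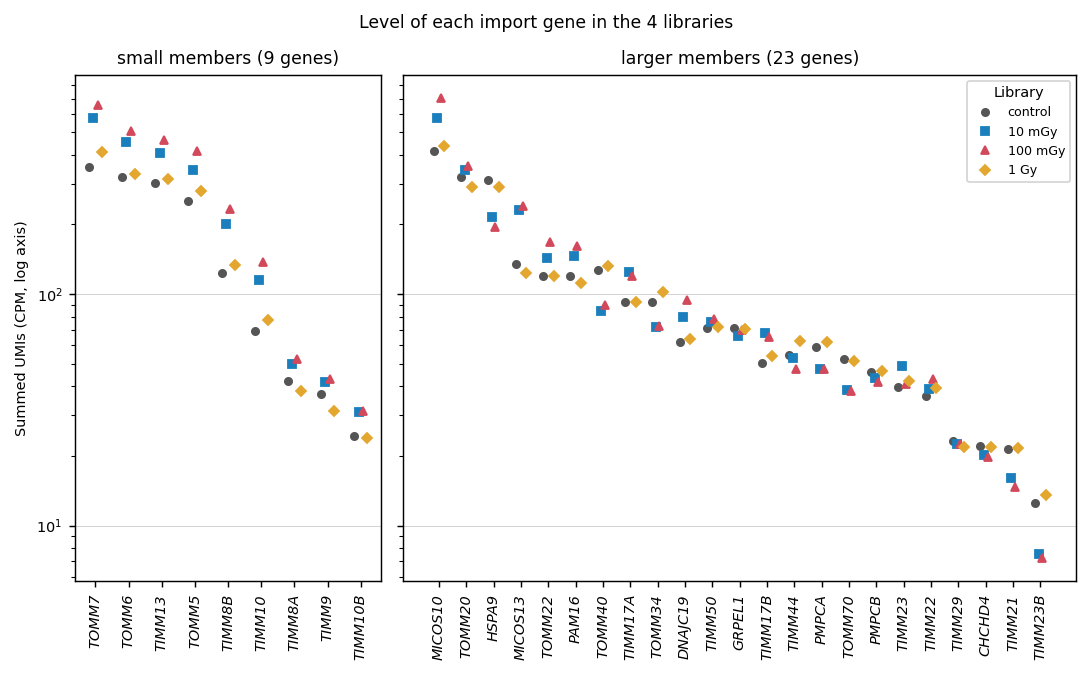
Level of each of the 32 tested import genes (CPM, log axis) in the control (circles), 10 mGy (squares), 100 mGy (triangles) and 1 Gy (diamonds) libraries, small members on the left and larger members on the right. In 9 of 9 small members the 100 mGy and 10 mGy points lie above the other two, as in 20.7% of all genes tested. Larger members such as HSPA9 show the opposite order. Values are relative to the library total. Unscaled UMIs per barcode put TIMM8A, TIMM9 and TIMM10B below the control at 100 mGy without low-UMI barcodes, and TIMM13 as well over all barcodes.

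TOMM7, the small subunit that influences how the TOM complex is assembled and taken apart, stood at 355 CPM in the control, 576 CPM at 10 mGy, 656 CPM at 100 mGy and 411 CPM at 1 Gy. The ratios to the control were 1.63 (95% interval 1.61 to 1.64), 1.85 (1.84 to 1.87) and 1.16 (1.15 to 1.17) for the 3 doses in rising order. Both low doses were the high libraries, and 1 Gy lay between them and the control. TOMM6, which stabilises the complex, stood at 321, 456, 505 and 332 CPM in the same order of libraries, with ratios of 1.42, 1.57 and 1.03. TOMM5, bound to the channel protein, stood at 254, 344, 415 and 279 CPM, with ratios of 1.35, 1.64 and 1.10. The small TOM subunits therefore had the same order in all 3 genes, with no overlap of counting intervals between neighbouring libraries. With 54011 to 164739 UMIs per gene and library these intervals are narrow, and the share of all genes with such gaps was not counted. Relative to genes of like principal transcript length, TOMM7 lay at 0.17 (10 mGy) and 0.30 (100 mGy) on the log2 scale. TOMM6 lay at -0.02 and 0.07 and TOMM5 at -0.09 and 0.13, close to genes of their length. TOMM5 was 1 of 2 members over 1.2-fold higher at 100 mGy than at 10 mGy (ratio 1.21, 1.2 to 1.22), a difference that 1.35% of all genes showed.

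TIMM10, which forms a hexameric chaperone with TIMM9, had the highest ratio of the small members. It stood at 69.5 CPM in the control, 116 CPM at 10 mGy, 138 CPM at 100 mGy and 77.2 CPM at 1 Gy, from 14782 to 33638 UMIs. The ratios were 1.66 (1.63 to 1.70), 1.98 (1.94 to 2.02) and 1.11 (1.09 to 1.14). Its partner TIMM9 stood at 37.1, 41.8, 43.1 and 31.2 CPM, and its ratios of 1.13 (1.10 to 1.16), 1.16 (1.13 to 1.2) and 0.843 (0.815 to 0.871) kept within 1.2-fold. TIMM9 was lowest at 1 Gy. Its intervals at 10 mGy and 100 mGy overlapped, though the direct ratio of 100 mGy to 10 mGy was 1.03 (1.005 to 1.06). The 2 partners of 1 hexamer thus differed in ratio beyond their counting intervals, which cover counting error only, at each dose. Their principal transcripts have 680 (TIMM10) and 1336 bases (TIMM9). Against genes of like principal transcript length TIMM10 lay at 0.20 and 0.40 and TIMM9 at 0.01 and 0.09 at the low doses, on the log2 scale. By exonic length TIMM10 lay at 0.33 and 0.57 and TIMM9 at -0.24 and -0.19.

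TIMM8B and TIMM13 belong to the related TIMM8 and TIMM13 chaperone, which serves a narrower set of inner membrane proteins. TIMM8B stood at 124 CPM in the control, 200 CPM at 10 mGy, 233 CPM at 100 mGy and 133 CPM at 1 Gy, with ratios of 1.61, 1.88 and 1.07. TIMM13 stood at 302, 408, 465 and 314 CPM, with ratios of 1.35, 1.54 and 1.04. In both genes the low doses were high and 1 Gy was close to the control. TIMM8A, the X-linked gene of deafness-dystonia syndrome, stood at 42.3, 49.8, 52.2 and 38.1 CPM, with ratios of 1.18 (1.15 to 1.21), 1.24 (1.2 to 1.27) and 0.902 (0.875 to 0.929). It was the 1 small member past 1.2-fold at 100 mGy and not at 10 mGy, though the levels at these doses differed by a ratio of 1.05. TIMM10B, a subunit that docks the chaperone on the TIM22 complex, stood at 24.4, 31.0, 31.3 and 23.9 CPM, with ratios of 1.27, 1.28 and 0.982. Its levels at 10 mGy and 100 mGy, and in the control and at 1 Gy, were not apart by their counting intervals.

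The paralogs TIMM8A and TIMM8B therefore differed in ratio at each dose, with intervals that did not overlap. Against genes of like principal transcript length they lay close together at the low doses. TIMM8A was at 0.16 and 0.27 there and TIMM8B at 0.16 and 0.32 on the log2 scale. By exonic length the values were 0.38 and 0.51 for TIMM8A and 0.28 and 0.50 for TIMM8B. At 1 Gy they were at -0.15 and 0.13 by transcript length. For a gene such as TIMM8B the annotation holds 2 genes named as its pseudogenes, and 3 for TIMM9, so UMIs could be split or dropped there. TIMM8B also overlaps SDHD on the opposite strand and TIMM13 overlaps LMNB2 on the same strand, and no source used here says whether the counting used strand.

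Of the larger members, 30.4% were over 1.2-fold higher and 30.4% lower at each low dose, against 15.4% and 53.0% of all genes at 10 mGy and 14.0% and 58.9% at 100 mGy. At 10 mGy 7 of 23 were over 1.2-fold higher (MICOS10, MICOS13, PAM16, TIMM17A, DNAJC19, TIMM17B and TIMM23) and 7 were over 1.2-fold lower (HSPA9, TOMM40, TOMM34, PMPCA, TOMM70, TIMM21 and TIMM23B). At 100 mGy the count was again 7 and 7, with TOMM22 in place of TIMM23 among the higher genes and the same 7 lower genes. The log2 ratios of larger members had a median of -0.03 at both low doses, against 0.44 and 0.65 in the small members and -0.30 and -0.38 in all genes tested. Small minus larger came to 0.47 at 10 mGy, 0.68 at 100 mGy and 0.04 at 1 Gy. At the low doses this difference was 0.16 and 0.31 when each gene was set against genes of like principal transcript length, 0.20 and 0.28 by exonic length, and 0.23 and 0.31 among members of at least 100 CPM.

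Scaling decided how many members counted as lower. Scaling by the median ratio of all genes, which sets the median of all genes to 0, put 30.6% of all genes over 1.2-fold higher and 27.3% lower at 10 mGy, and 31.8% and 29% at 100 mGy. By that scaling 21 members were higher and 2 lower at 10 mGy, and 22 and 2 at 100 mGy. The difference between small and larger members is the same under any scaling by a factor per library.

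**Figure D2:**
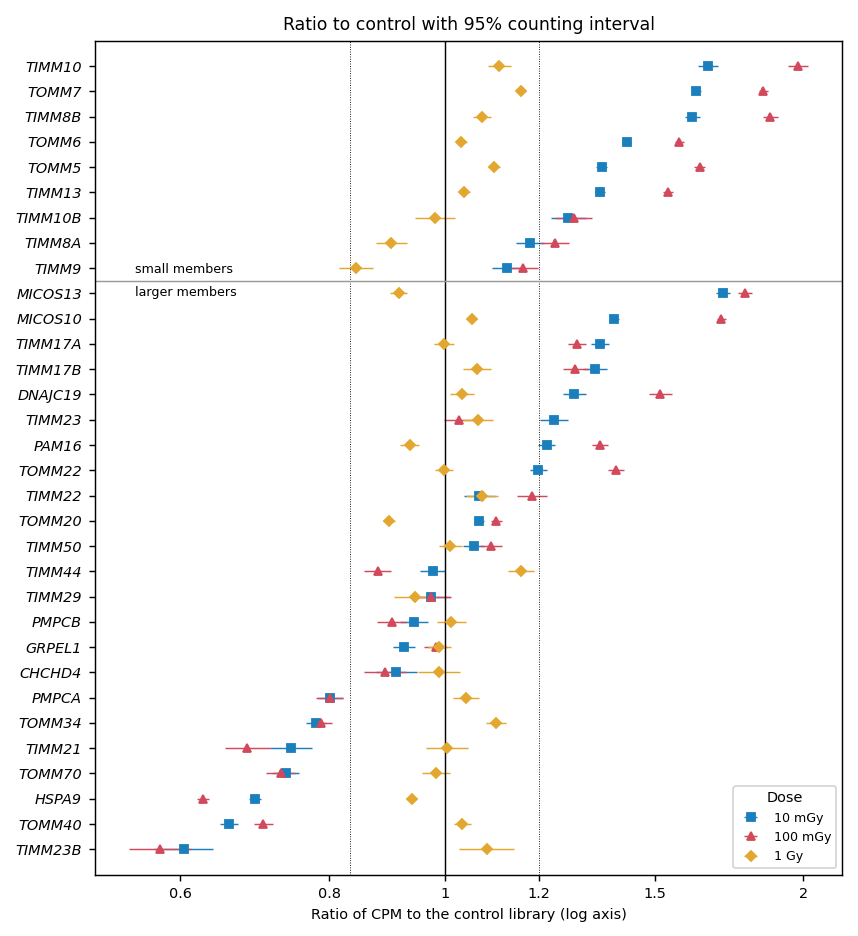
Ratio of the CPM level to that of the control library (log axis) at 10 mGy (squares), 100 mGy (triangles) and 1 Gy (diamonds) for the 32 tested members, with bars for the 95% counting interval and dotted lines at 1.2-fold in either direction. Small members lie right of 1 at both low doses, up to 1.98 for TIMM10, larger members spread from 0.577 for TIMM23B to 1.79 for MICOS13, and all 1 Gy points lie within the dotted lines; scaling by the median ratio would move all points of 10 mGy and 100 mGy to the right.

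MICOS13 had the highest ratio of the 23 tested larger members at 10 mGy. It stood at 134 CPM in the control, 230 CPM at 10 mGy, 240 CPM at 100 mGy and 123 CPM at 1 Gy, with ratios of 1.71 (1.69 to 1.74), 1.79 (1.76 to 1.81) and 0.915 (0.900 to 0.930). MICOS10 stood at 414, 575, 707 and 436 CPM, with ratios of 1.39, 1.71 and 1.05, and it was the other member over 1.2-fold higher at 100 mGy than at 10 mGy (1.23, 1.22 to 1.24). These 2 members were high in CPM at the low doses and near the control at 1 Gy. As unscaled UMIs over all barcodes MICOS10 lay at a log2 ratio of -0.05 at 10 mGy. Other genes of the same complex lay on both sides of the control at the low doses. Ratios were 0.788 and 0.772 for IMMT, 0.792 and 0.799 for APOOL and 0.926 and 0.882 for CHCHD3. CHCHD6 (1.22 and 1.24) and APOO (1.26 and 1.28) were above it. MICOS10 and MICOS13 each share a locus. MICOS13 overlaps RPL36, a ribosomal protein gene, on the opposite strand, and MICOS10 overlaps NBL1 on the same strand.

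In the import motor the members went separate ways. HSPA9, the ATP-driven core of the motor, stood at 310 CPM in the control, 215 CPM at 10 mGy, 195 CPM at 100 mGy and 291 CPM at 1 Gy, with ratios of 0.693 (0.686 to 0.701), 0.627 (0.620 to 0.634) and 0.938 (0.928 to 0.949). The low doses were the low libraries, apart from the other two. Over 1.2-fold lower were also 53.0% of all genes at 10 mGy and 58.9% at 100 mGy. Against genes of like exonic length HSPA9 lay at -0.03 and -0.06, and by principal transcript length at -0.28 and -0.33. DNAJC19 and PAM16, a J-domain protein and its inhibitory partner that regulate HSPA9, were above the control in CPM at both low doses. DNAJC19 stood at 62.2, 79.9, 94.3 and 64.3 CPM with ratios of 1.28, 1.52 and 1.03, and PAM16 at 120, 146, 162 and 112 CPM with ratios of 1.22, 1.35 and 0.934. As unscaled UMIs per barcode PAM16 was below the control at 100 mGy (log2 ratio -0.07 without low-UMI barcodes and -0.21 over all barcodes), as was DNAJC19 over all barcodes (-0.04). Over all barcodes both were below it at 10 mGy too (-0.24 for PAM16 and -0.17 for DNAJC19). Set against genes of like principal transcript length PAM16 lay at -0.25 and -0.15, but by exonic length at 0.14 and 0.34. It overlaps CORO7 on the same strand. GRPEL1, the nucleotide exchange factor, stood at 71.3, 65.9, 70.1 and 70.6 CPM and TIMM44, which tethers the motor to the channel, at 54.3, 53.1, 47.7 and 63.0 CPM. These 2 kept within 1.2-fold at each dose, and TIMM44 was highest at 1 Gy (1.16, 1.13 to 1.19). The annotation names 9 pseudogenes of DNAJC19.

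Among the larger TOM genes, 3 of 5 tested were over 1.2-fold lower at both low doses, as were 50.7% of all genes. TOMM40, the channel, stood at 128 CPM in the control, 84.1 CPM at 10 mGy, 89.9 CPM at 100 mGy and 132 CPM at 1 Gy, with ratios of 0.660 (0.648 to 0.671), 0.704 (0.692 to 0.717) and 1.03 (1.02 to 1.05). TOMM70, a receptor for carriers, stood at 52.3, 38.4, 38.1 and 51.4 CPM with ratios of 0.735, 0.728 and 0.983. Against genes of like principal transcript length TOMM70 lay at 0.00 and 0.10 at the low doses, and by exonic length at -0.11 and -0.05. TOMM34, a cytosolic co-chaperone despite its name, stood at 92.2, 71.9, 72.6 and 102 CPM with ratios of 0.780, 0.788 and 1.10, and median ratio scaling put it slightly above the control at 100 mGy (0.04 on the log2 scale). The remaining receptors lay on the other side. TOMM22, the central receptor, stood at 120, 144, 167 and 120 CPM with ratios of 1.2, 1.39 and 0.999, just inside 1.2-fold at 10 mGy and, unscaled, at a log2 ratio of -0.02 without low-UMI barcodes and -0.17 over all barcodes at 100 mGy. TOMM20, the receptor for presequences, stood at 322, 344, 356 and 289 CPM with ratios of 1.07, 1.10 and 0.898.

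The channel protein and its small subunits hence stood on opposite sides of the control in CPM at both low doses. At 10 mGy TOMM40 was at 0.660 of the control while TOMM5, TOMM6 and TOMM7 were at 1.35 to 1.63 times it, and at 1 Gy the 4 genes lay between 1.03 and 1.16. At both low doses TOMM40 and the 3 small TOM subunits kept their direction under each scaling to a library total or to the median ratio. TOMM5 (-0.09) and TOMM6 (-0.02) were on the other side at 10 mGy both as unscaled UMIs over all barcodes and when set against genes of like principal transcript length.

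Of the inner membrane translocases, TIMM17A and TIMM17B, paralogous partners of the TIM23 channel, had like ratios in CPM at both low doses. TIMM17A stood at 92.5, 125, 120 and 92.4 CPM with ratios of 1.35, 1.29 and 0.999, and TIMM17B at 50.7, 67.7, 65.2 and 53.9 CPM with ratios of 1.34, 1.29 and 1.06. In both genes 10 mGy was the highest library, unlike in the small members, but both were below the control at 100 mGy without scaling and without low-UMI barcodes (log2 ratios -0.13 and -0.14) and over all barcodes (-0.28 for both). Over all barcodes they were also below it at 10 mGy (-0.09 for TIMM17A and -0.11 for TIMM17B). Against genes of like principal transcript length TIMM17B lay at -0.11 and -0.22 and TIMM17A at 0.36 and 0.33. By exonic length both lay above such genes, TIMM17B at 0.27 and 0.27 and TIMM17A at 0.58 and 0.58. TIMM23, the channel itself, stood at 39.7, 49.0, 40.8 and 42.3 CPM and was the 1 member over 1.2-fold lower at 100 mGy than at 10 mGy (ratio 0.832, 0.811 to 0.854), as were 12.7% of all genes. Against the control its ratio was 1.23 at 10 mGy, which turned to a log2 ratio of -0.22 unscaled over all barcodes and to -0.05 and -0.11 against genes of like transcript and exonic length, and its interval at 100 mGy (0.998 to 1.06) held 1.

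TIMM23B, a paralog of TIMM23, stood at 12.5, 7.56, 7.22 and 13.6 CPM with ratios of 0.604 (0.570 to 0.640), 0.577 (0.543 to 0.613) and 1.08 (1.03 to 1.14). It was the lowest of the 32 tested members in ratio at both low doses. Aligned whole, the 1142 bases of the TIMM23B principal transcript differed from that of TIMM23 by 237 changes, gaps included. Its last 300 bases, aligned on their own, differed by 142 changes. Counts of genes that share part of their sequence are still uncertain, and TIMM23B shares its strand and locus with the TIMM23B-AGAP6 readthrough. TIMM21, which links the TIM23 complex to the TOM complex and to respiratory chain assembly, stood at 21.5, 16.0, 14.7 and 21.6 CPM with ratios of 0.743, 0.683 and 1.00. TIMM50, the TIM23 receptor, TIMM22, the carrier insertion channel, and TIMM29, its metazoan partner, had ratios of 0.974 to 1.18 at the low doses and of 0.944 to 1.07 at 1 Gy.

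Of the processing peptidase, the subunit PMPCA stood at 59.4, 47.6, 47.5 and 61.9 CPM and the subunit PMPCB at 46.0, 43.4, 41.5 and 46.6 CPM. The ratios were 0.802, 0.8 and 1.04 for PMPCA, and 0.942, 0.902 and 1.01 for PMPCB, with intervals of the 2 genes that did not overlap at the low doses. PMPCA, just past 1.2-fold lower at both low doses, turned to 0.06 on the log2 scale at 100 mGy with median ratio scaling. Against genes of like exonic length PMPCA lay at 0.10 and 0.16 at the low doses, and by principal transcript length at -0.13 and -0.07. CHCHD4, which oxidises the small TIM proteins on entry, stood at 22.1, 20.2, 19.7 and 21.9 CPM with ratios of 0.911, 0.890 and 0.990. It stayed within 1.2-fold at each dose.

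At 1 Gy no member was over 1.2-fold from the control in either direction, where 1.28% of all genes were higher and 0.846% lower. The ratios of the 32 members lay between 0.843 (TIMM9) and 1.16 (TOMM7 and TIMM44). Taking both low doses at once, 18 of 32 members, 9 of 9 small and 9 of 23 larger, were above both the control and 1 Gy, against 20.7% of all genes. Below both were 11 members, none of them small, against 67.6% of all genes. In both low doses 13 members were over 1.2-fold higher than the control (12.3% of all genes) and 7 over 1.2-fold lower (50.7%). From 10 mGy to 100 mGy, 9 of 9 small and 12 of 23 larger members were higher, against 32.2% of all genes.

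The 3 members under the filter were TOMM40L, TIMM23B-AGAP6 and TOMM20L. TOMM40L, a paralog of the channel gene, stood at 6.42, 5.15, 4.58 and 7.40 CPM. TIMM23B-AGAP6 had 158, 84, 83 and 174 UMIs in the control, 10 mGy, 100 mGy and 1 Gy libraries, and TOMM20L, which lies beside TIMM9, had 14, 50, 39 and 16. The first 2 were thus low where TIMM23B and TOMM40 were low, and TOMM20L was at a trace level.

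Of 30 further genes of import, assembly and quality control, 27 were tested. At 10 mGy 12 of them (44.4%, against 15.4% of all genes) were over 1.2-fold higher and 9 (33.3%, against 53.0%) lower. At 100 mGy 10 (37.0%) were higher and 10 lower, against 14.0% and 58.9% of all genes, and at 1 Gy 0 and 1. Their median log2 ratios were 0.16, -0.10 and 0.00. MTX1, a metaxin of the outer membrane, had the highest ratio at 10 mGy, with 53.1 CPM in the control, 92.6 CPM at 10 mGy, 78.1 CPM at 100 mGy and 54.5 CPM at 1 Gy (ratio 1.74, 1.71 to 1.78, at 10 mGy). Its relative MTX3 had the lowest, with 19.4, 9.64, 8.88 and 18.6 CPM (0.498, 0.475 to 0.523). APOO, a MICOS subunit, was the 1 gene past 1.2-fold at 1 Gy, with 13.3, 16.7, 17.0 and 10.2 CPM and a ratio of 0.769 (0.726 to 0.813).

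Most small members have short transcripts, and the ratio followed length across all genes. The length used was that of the principal transcript in GENCODE 29, matched by Ensembl identifier. The median was 805 bases in the small members, 2062 in the larger ones and 3149 in all genes tested. Across 8319 genes, which are not independent and share the same libraries, the Spearman rho of the log2 ratio with this length was -0.64, -0.65 and 0.03 for the 3 doses in rising order. Across the 32 members rho was -0.53, -0.50 and -0.22, and with the coding length of that transcript -0.79, -0.83 and -0.07. In the 20% of genes with the shortest transcripts, 207 to 1742 bases, the median lay at 0.29 for 10 mGy and 0.25 for 100 mGy, and 52.5% of genes were over 1.2-fold higher and 8.95% lower at 10 mGy. In the 20% with the longest, it lay at -0.63 and -0.75, and 1.98% were higher. The 20% with the shortest held 17 members, 7 of them small, and 11 of the 17 were over 1.2-fold higher and 2 lower at 10 mGy.

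**Figure D3:**
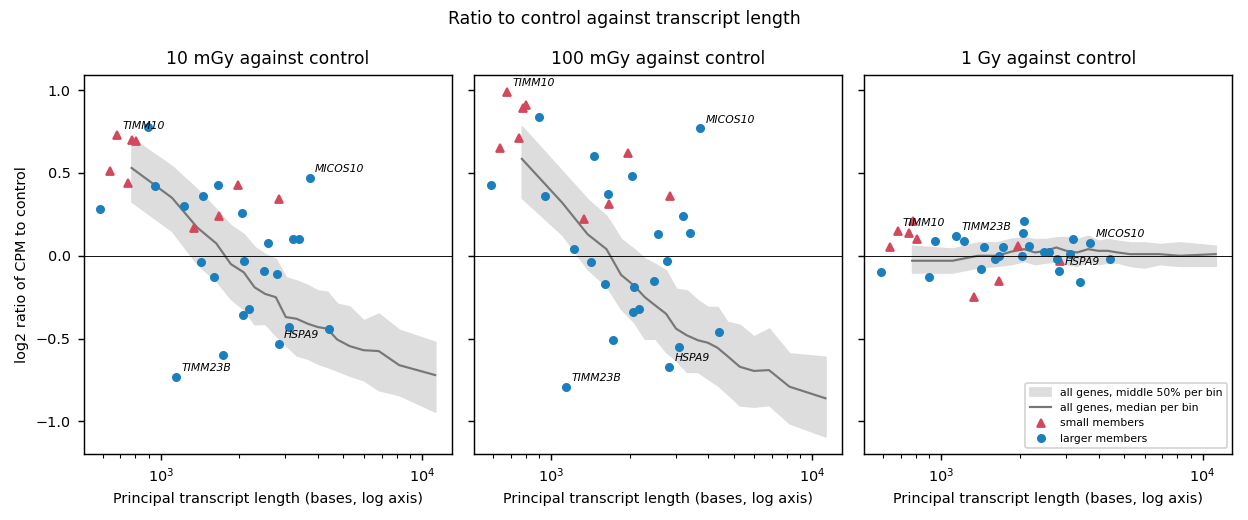
Log2 ratio of the CPM level to the control against principal transcript length (bases, log axis) at 10 mGy, 100 mGy and 1 Gy. Triangles are small and circles larger members, the grey line is the median of all tested genes in 20 bins of length and the band their middle 50%; at both low doses the line falls from above 0 to below it, 7 of 9 small members lie in the 20% of genes with the shortest transcripts, MICOS10 lies above the band and TIMM23B below it, and at 1 Gy the line is flat.

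Set against genes of like principal transcript length, a comparison chosen after the data were seen, the small members were higher on the median at both low doses. Their median difference from the median of like genes was 0.16 (7 of 9 above), 0.30 (9 of 9 above) and 0.07 (6 of 9 above) on the log2 scale for 10 mGy, 100 mGy and 1 Gy. For the larger members it was 0.00, -0.00 and -0.01. TIMM13 (0.53 and 0.80 at the low doses) and TIMM10B (0.59 and 0.71) stood highest among the small members, whereas TOMM5 (-0.09 and 0.13) and TOMM6 (-0.02 and 0.07) lay close to genes of their length. MICOS10 was 0.88 and 1.28 above genes of like length, TOMM40 0.68 and 0.54 below (differences of -0.68 and -0.54) and TIMM23B at -1.08 and -1.12. Against exonic length, which joins all annotated exons, the median of the small members was 0.33 and 0.50 and that of the larger members 0.12 and 0.21. The order of the small members depended on the length used. By exonic length TOMM5 stood highest (0.58 and 0.92), and TIMM13 lay at 0.15 and 0.38. What part length plays in the difference between small and larger members was not tested.

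The members were also split by coding length, a split chosen after the data were seen. The 15 members with under 450 coding bases had median log2 ratios of 0.43, 0.62 and 0.05, and 11 of them at 10 mGy and 13 at 100 mGy were over 1.2-fold higher with none lower. The 17 longer ones had medians of -0.11, -0.17 and 0.02, with 3 higher (17.6%) and 7 lower (41.2%) at 10 mGy and 2 higher (11.8%) and 7 lower at 100 mGy. Of all genes 15.4% were higher and 53.0% lower at 10 mGy, and 14.0% and 58.9% at 100 mGy, so the shares of the longer members were near or below those of all genes. The short group holds MICOS10, MICOS13, DNAJC19, PAM16, TOMM20 and TOMM22 beside the small members.

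The share of barcodes with a UMI depends on the depth per barcode as well as on the level. TOMM7 had a UMI in 89.5% (exact 95% interval 89.0 to 90.1), 85.0%, 85.4% and 85.8% of barcodes in the control, 10 mGy, 100 mGy and 1 Gy libraries. After each barcode was thinned to 1500 UMIs, which left out 932, 2048, 4576 and 2859 shallower barcodes, the shares were 41.0%, 58.0%, 61.8% and 45.6%. HSPA9 had a UMI in 88.7%, 69.2%, 70.8% and 81.3% of barcodes, and in 37.4%, 27.5%, 25.1% and 35.4% after thinning. Thinned shares thus had the order of the summed levels in both genes. TIMM10 went from 9.81% in the control to 16.7% and 18.5% at the low doses and 10.8% at 1 Gy, all thinned. A larger share than in the control was found in 0, 1 and 0 of 32 members at 10 mGy, 100 mGy and 1 Gy before thinning (2.56%, 0.964% and 0.129% of all genes) and in 21, 20 and 21 after it (28.2%, 25.2% and 55.6% of all genes). No cell type that lacks these genes was in the libraries, so the share that free RNA gives was not measured.

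**Figure D4:**
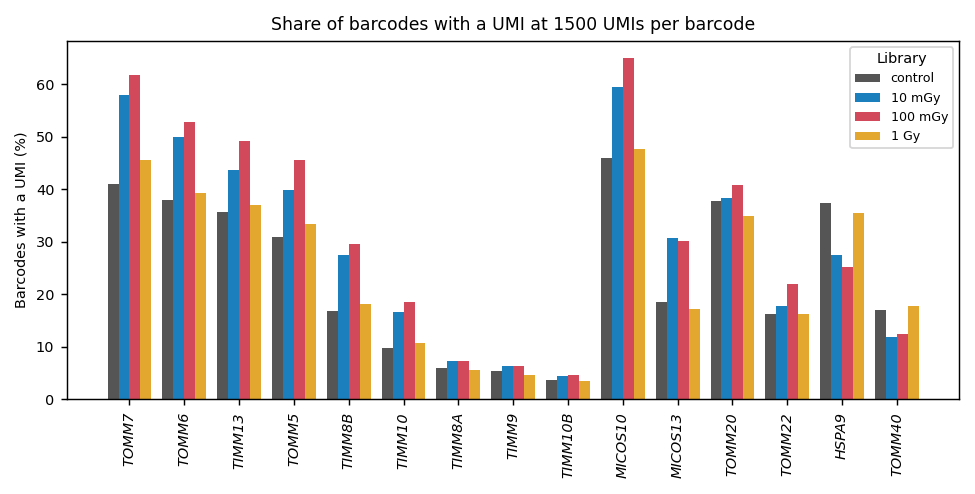
Percent of barcodes with at least 1 UMI of the gene after thinning each barcode to 1500 UMIs, for the 9 small members and 6 larger ones, with bars for the control, 10 mGy, 100 mGy and 1 Gy libraries. TOMM7 is found in 41.0% of control barcodes and 61.8% at 100 mGy, HSPA9 in 37.4% and 25.1%, so in these 2 genes the thinned shares have the order of the summed levels.

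The study asked how widely expression spreads over cells at low doses, with dispersion (SD over mean) as its measure. On UMIs scaled to 10000 per barcode, TOMM7 had a dispersion of 75.1% (control), 72.8% (10 mGy), 79.6% (100 mGy) and 84.2% (1 Gy). That of HSPA9 was 78.0%, 121%, 137% and 96.8%. Without low-UMI barcodes these values were 40.6%, 34.5%, 38.0% and 43.1% for TOMM7, with 100 mGy below the control. For HSPA9 they were 45.0%, 56.2%, 67.2% and 51.4%. In HSPA9 the libraries with the lower level had the larger dispersion, while in TOMM7 the highest dispersion was at 1 Gy. Dispersion was lower at 100 mGy than at 10 mGy in 0 of 32 members, as in 1.41% of all genes, and in 0 of 32 without low-UMI barcodes (0.329% of all genes). After thinning to 1500 UMIs it was lower in 23 of 32 (37.7% of all genes). Counting spread enters this measure and is smaller where the level or the depth per barcode is higher. Barcodes were shallower at 100 mGy than at 10 mGy, with medians of 12417 and 13757 UMIs. No direction is therefore read from these counts.

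The share of low-UMI barcodes differed between the libraries without an order by dose, from 19.6% in the control to 41.4% at 10 mGy. In low-UMI barcodes the summed level of the small members was 1478, 2306, 2580 and 1785 CPM in the 4 libraries. In the other barcodes it was 1530, 2218, 2538 and 1635 CPM. Without low-UMI barcodes the small members were at 1.45 and 1.66 times the control at the low doses and the larger members at 1.08 and 1.16 times. Single members in low-UMI barcodes were at 0.698 (TOMM22 at 10 mGy) to 1.38 (TIMM23 at 1 Gy) times their level in the other barcodes of the library. The share of mitochondrially encoded UMIs also moved with the libraries, with a median of 5.75% (control), 4.17% (10 mGy), 4.29% (100 mGy) and 5.41% (1 Gy), and its part in these ratios was not tested.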

How the data were processed

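The deposited files, made by the authors, held raw UMI counts per gene and barcode from 4 libraries (Chromium 3' v3 chemistry). Per the file headers they came from Cell Ranger 7.0.1, and the submitters' processing notes name STAR and GRCh37. No source used here gives cell filters, the annotation, or the use of intronic reads or strand. The study gives about 10000 cells per group, and all 11111 to 21514 barcodes were used, with no doublet calling.

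UMIs were summed over barcodes and divided by the library total to give CPM. Genes with a mean under 10 CPM over the 4 libraries were left out. Ratios to the control carry exact 95% conditional binomial intervals, and levels exact Poisson intervals, for counting error only. With 1 library per dose no test was made. Depth was 211752280 to 285806026 UMIs per library, so counting intervals are narrow, and the spread between cultures is unknown. The 1.2-fold limit is a description.

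The members and lists were chosen with earlier results of these data known. All members could be named. Of the other import genes those with the highest and the lowest ratio at 10 mGy and any past 1.2-fold at 1 Gy were named. IMMT, APOOL, CHCHD3, CHCHD6 and APOO were named beside MICOS10 and MICOS13, a choice made after the data were seen. Lengths came from GENCODE 29 (GRCh38), which is not the noted build, so they were matched by Ensembl identifier only, with an exonic length for 99.9% of the genes tested, a principal transcript for 8319 of 8507, and both for all 32 members tested. For MICOS10 and MICOS13 it uses older symbols, and it names the identifier of TIMM23B-AGAP6 LINC00843, a lincRNA. Promoters came from RefSeq and were matched by symbol.

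Python 3.11.15, numpy 2.4.6, scipy 1.17.1 and pandas 2.3.3 were used, and the calculations were tested on simulated data. Alternatives were other scalings, barcode filters (low-UMI barcodes, a minimum of 200 genes with a maximum of 20% mitochondrial UMIs, and no barcodes over 2.5 times the median UMI count), other low-value filters, centring on length, a stricter fold limit and other definitions of small and larger members.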

Additional observations from a re-analysis of the deposited data

How the results depend on the processing

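Of changes in sign, those of members past 1.2-fold by the reported measure are named here, and members nearer to the control changed sign as well. No paired analysis was possible because each dose had 1 library and no test was made. Leaving out low-UMI barcodes, filtering barcodes on genes and mitochondrial share, or dropping those of very high UMI count kept each of the 96 single-gene values within its counting interval. Averaging over barcodes gave a small minus larger difference of 0.72 at 100 mGy and 0.08 at 1 Gy.

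Without scaling, and without low-UMI barcodes, 5 members were over 1.2-fold higher and 16 lower at 100 mGy (2.37% and 85.0% of all genes), 27 were lower at 1 Gy (83.0% of all genes), and 9 and 7 were above and below both other libraries at both low doses (7.01% and 54.8% of all genes). Among members past 1.2-fold at 100 mGy, the log2 ratios of TIMM17A (-0.13), TIMM10B (-0.14), PAM16 (-0.07), TOMM22 (-0.02), TIMM17B (-0.14) and TIMM8A (-0.20) then changed sign. Over all barcodes, unscaled, a setting added later, 0, 2 and 0 members were higher (1.62%, 1.02% and 0.0% of all genes) and 18, 21 and 32 lower (84.6%, 90.1% and 97.2%) at the 3 doses, and 4 were above and 12 below both other libraries at both low doses (3.59% and 74.6%). It turned MICOS10 (-0.05), TOMM6 (-0.02), TOMM5 (-0.09) and TIMM23 (-0.22) at 10 mGy, TOMM22 (-0.17) and TIMM8A (-0.34) at 100 mGy, and at 10 and 100 mGy TIMM17A (-0.09 and -0.28), DNAJC19 (-0.17 and -0.04), TIMM10B (-0.18 and -0.28), PAM16 (-0.24 and -0.21), TIMM13 (-0.10 and -0.02) and TIMM17B (-0.11 and -0.28). Without low-UMI barcodes the unscaled median of all genes was -0.42, -0.89 and -0.37 at the 3 doses. Median ratio scaling left 2, 2 and 1 members lower at the 3 doses (27.3%, 29% and 1.59% of all genes) and 5 below in both low doses (41.7%), and of the members past 1.2-fold turned PMPCA (0.06) and TOMM34 (0.04) at 100 mGy.

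Centring on exonic length gave small minus larger differences of 0.20, 0.28 and 0.08 and, of the members past 1.2-fold, turned PMPCA (0.10 and 0.16 at the low doses) and TIMM23 (-0.11 at 10 mGy). It also put TIMM9, within 1.2-fold of the control, at -0.24 and -0.19. Centring on principal transcript length, chosen after the data were seen, gave 0.16, 0.31 and 0.09, with 8 members higher and 3 lower at 10 mGy (21% and 19.1% of all genes) and 14 higher and 4 lower at 100 mGy (21.5% and 20.7%). Of the members past 1.2-fold it turned TOMM70 (0.10 at 100 mGy), TOMM6 (-0.02), TOMM5 (-0.09) and TIMM23 (-0.05) at 10 mGy, and PAM16 (-0.25 and -0.15) and TIMM17B (-0.11 and -0.22) at both low doses.

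With a filter of 100 CPM, which keeps 13 members, 9 were higher and 2 lower at 10 mGy (30.7% and 37.1% of all genes), 2 lower at 100 mGy (39.0%), 11 above and 2 below in both low doses (40.1% and 48.8%), and the differences were 0.23, 0.31 and 0.15. At 1.5-fold, 4 were higher and 2 lower at 10 mGy (4.94% and 25.8% of all genes) and 9 and 2 at 100 mGy (5.04% and 33.9%). Against the larger TIMM and TOMM genes alone the difference at 10 mGy was 0.41, and by coding length under 450 bases, also chosen later, 0.55 and 0.79 at the low doses. A split by protein length was not run, since no protein table was used here. Thinning to 1500 UMIs put dispersion lower for 100 mGy than for 10 mGy in 23 members, and larger shares of barcodes than in the control in 21, 20 and 21. The causes of these moves were not tested beyond what each alternative changes by construction.

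The depth of the libraries leaves counting error small. The missing replicates set the limit, and no value here separates dose from library.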
